A study of Mus musculus with 6 samples.

Results

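The formins are actin assembly factors, and the 9 genes described here are Diap1, Diap2, Diap3, Daam1, Fmnl1, Fmnl2, Fmnl3, Fhod1 and Inf2, found by symbol among the 23284 genes listed for each library. All 9 were listed in all 6 libraries. The cells were C1498, a mouse acute myeloid leukemia (AML) line that had been transduced with GFP, expanded as 1 clone and injected intravenously into C57BL/6 J mice, of which females were used unless stated otherwise. GFP+ CD49b+ cells were sorted from bone marrow on day 21 after transfer. Of the mice, 3 had received cytarabine, a cytidine analog that blocks DNA synthesis, and 3 served as controls. Each of the control records has PBS in its source name and nontreat in its title. Libraries, 1 per mouse, are called cytarabine 1 to 3 and control 1 to 3, and the sample records give no age or dose. The methods of the study give a general age range of young adult mice, and a cytarabine dose and schedule for its imaging and survival experiments.

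Formins bind the growing end of an actin filament through their FH2 domain and add monomers that profilin carries to the neighbouring FH1 domain, which yields long, unbranched filaments. The Diaphanous proteins are held closed by contact between their ends until an upstream signal opens them, and Dishevelled acts on DAAM1. Filament assembly uses up free actin monomers, and because monomers hold the MRTF coactivators of serum response factor (SRF) in the cytoplasm, formin activity is a known input to SRF transcription. In leukocytes, these proteins serve the cell cortex, protrusion and cell division.

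The upstream sequences of Diap2 and Inf2 are shown because these genes stood apart between the groups, in opposite directions. They are the 250 bases before a RefSeq start in GRCm38.p6, on the plus strand, with capitals on each GGGCGG (the GC box) or its complement. The windows shown are chrX:129749492-129749741 for Diap2 and chr12:112588517-112588766 for Inf2. A second Inf2 window, chr12:112588534-112588783, overlaps the first and is not shown, and it holds 6 GC boxes, against 5 in the first.
Diap2: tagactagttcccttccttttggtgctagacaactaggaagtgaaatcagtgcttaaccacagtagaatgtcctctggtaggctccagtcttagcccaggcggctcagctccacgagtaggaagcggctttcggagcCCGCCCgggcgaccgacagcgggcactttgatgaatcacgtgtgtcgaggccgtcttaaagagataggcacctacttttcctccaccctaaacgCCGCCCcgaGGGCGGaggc
Inf2: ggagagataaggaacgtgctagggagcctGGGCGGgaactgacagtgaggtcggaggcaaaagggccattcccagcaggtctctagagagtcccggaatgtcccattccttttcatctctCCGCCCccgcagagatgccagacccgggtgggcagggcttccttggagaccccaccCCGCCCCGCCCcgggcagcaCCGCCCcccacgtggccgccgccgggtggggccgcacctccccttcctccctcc
Windows of this kind were found for 8 of the 9 genes, 10 windows in all, and not for Diap1. The GC box lay in windows of 7 of the 8 genes, Diap3 being the exception, and in 32.7% of 32851 windows of all genes. In Inf2, 1 pair of these boxes shares a base. The CArG box, the SRF element, was searched on both strands and lay in none of the 10 windows, against 1.47% of all windows. TTTCCCGC, a form of the E2F element, lay only in Fhod1 (0.895% of all windows), and neither TTTGGCGC, another form of it (0.417%), nor the ETS core CGGAAG (13.6%) lay in any. These counts describe letters in short windows and no factor binding.

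Values are FPKM, the fragments of a gene scaled by its exon length and by the size of the library, so that levels can be set side by side between genes. The number of reads was inferred from the spacing of the lowest values and lay between 11500000 and 18870000 per library, so that 3 reads on a transcript of 2000 bases would give 0.0883 to 0.145 FPKM. Of the markers of other cells, those of colon epithelium had the widest range in FPKM, with a summed level of 2090 to 4550 FPKM in cytarabine 2, cytarabine 3 and control 1 and of 27.4 to 323 FPKM in cytarabine 1, control 2 and control 3. These 2 sets of 3 libraries, called rich and poor in colon transcript below, cross the treatment groups. Heart markers ranged from 7.52 to 691 FPKM with cytarabine and from 52.9 to 2540 FPKM in controls, and neutrophil markers summed to 1430, 203 and 190 FPKM in cytarabine 1 to 3 and to 1440, 2050 and 2010 FPKM in control 1 to 3. The leukocyte gene Ptprc, which encodes CD45, was at 284 to 371 FPKM after cytarabine, against 301 to 386 FPKM in controls. For T cells, 4 of 5 markers were under 1 FPKM in every library, and the fifth, Cd28, was at 30.9 to 37.9 FPKM after cytarabine, against 12.4 to 14.7 FPKM in controls. For NK cells it was 3 of 4, and Klrb1c was at 3.57 to 5.07 FPKM after cytarabine, against 1.82 to 3.0 FPKM in controls. Macrophage markers summed to 13.6 to 154 FPKM, B cell markers to 5.91 to 14.4 FPKM, erythroid markers to 13.7 to 109 FPKM, endothelial markers to 0.194 to 6.4 FPKM and smooth muscle markers to 24.5 to 1180 FPKM, each with overlapping groups. Platelet markers summed to 3.98 to 7.53 FPKM after cytarabine, against 2.09 to 3.95 FPKM in controls. No listed marker was at 0 in all 6 libraries. What these transcripts contribute to the formin values was not tested. Values within each set and with a colon score as covariate are given below as a description.

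Fmnl1, the formin best known from blood cells, dominated the family. It was at 129, 103 and 95.2 FPKM in libraries cytarabine 1 to 3, against 107, 142 and 142 FPKM in control 1 to 3. Its mean of 120 FPKM was 4.19 times that of the next formin and above that of 93.2% of the 11703 genes whose mean reached 1 FPKM. Diap1 followed, at 30.9, 27.0 and 27.6 FPKM after cytarabine, while the controls had 26.4, 29.7 and 30.3 FPKM. Its protein is known as mDia1. Diap3, which encodes mDia2, a formin with a part in cytokinesis, was at 19.1, 14.8 and 15.3 FPKM in the cytarabine libraries, against 16.3, 19.4 and 20.1 FPKM in the control libraries. Fmnl3 was at 13.8, 11.5 and 11.9 FPKM after cytarabine, while the controls had 13.6, 14.8 and 15.3 FPKM. The order of these 4 genes was the same in each of the 6 libraries, although the ranges of Diap3 and Fmnl3 overlapped.

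The next 4 genes lay together at a few FPKM, and neighbours among them could not be ranked. Fhod1 exceeded Diap2 in 3 of the 6 libraries, Diap2 exceeded Daam1 in 3, and Daam1 exceeded Inf2 in 3. Fhod1, a formin linked to stress fibers, was at 4.59, 4.11 and 4.56 FPKM in the cytarabine libraries, against 3.48, 3.5 and 4.67 FPKM in the control libraries. Daam1, which links Dishevelled to actin, was at 2.26, 4.04 and 5.98 FPKM after cytarabine, while the controls had 4.58, 1.92 and 1.74 FPKM, and its highest value was 3.43 times its lowest. Fmnl2, a formin of lamellipodia, was the lowest of the 9, at 0.31, 0.55 and 0.409 FPKM in the cytarabine libraries, against 0.88, 0.427 and 0.107 FPKM in the control libraries. With a mean of 0.447 FPKM it did not reach the 1 FPKM needed for the test, so that 8 of the 9 genes were tested. At a length of 5508 bases its values stand for an estimated 7 to 66 reads, a range that the controls alone spanned. In the fit without the filter its log2 fold change was -0.018 (95% interval -0.52 to 0.49; adjusted p = 0.971 from limma). The remaining formin genes of the mouse also had means under 1 FPKM and were not tested, with 0.832 FPKM for Fhod3, 0.601 for Fhdc1, 0.281 for Fmn1, 0.272 for Daam2, 0.00809 for Grid2ip and 0.00605 for Fmn2. Fhod3, a formin of heart muscle, reached 2.39 FPKM in control 1, the library with the most heart transcript.

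**Figure D1:**
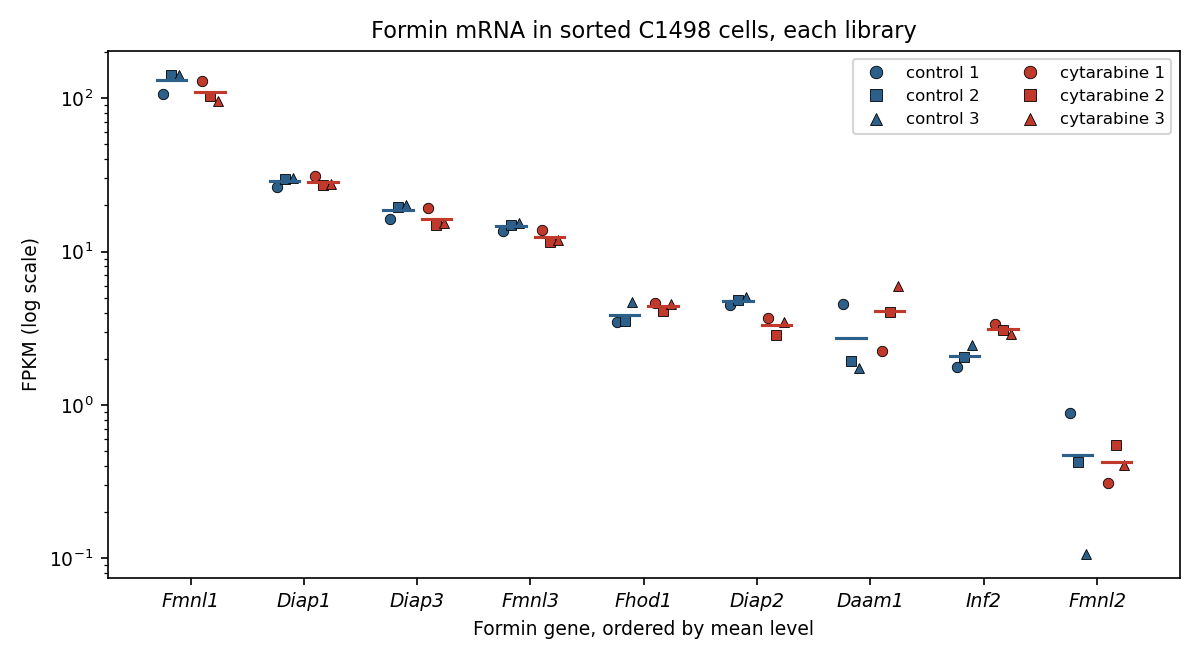
FPKM of each formin (log scale) in each library, with blue symbols for the 3 control libraries, red symbols for the 3 cytarabine libraries and a line at each group mean. Fmnl1 lies far above the rest, Fmnl2 is under 1 FPKM throughout, and the red and blue symbols separate fully only for Diap2 and Inf2.

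The question put to the data was whether formin mRNA differed between cells that had outlived cytarabine and control cells. Of the 8 tested formins, 2 had groups that did not overlap: all 3 cytarabine libraries lay below all 3 control libraries for Diap2 and above them for Inf2. None of the 8 passed the threshold of an adjusted p under 0.05 in limma, which 0 of the 11703 genes passed (0.0%, with 2038 genes or 17.4% at an unadjusted p under 0.05). At an unadjusted p under 0.05 there was 1 formin lower (Diap2, against a background of 9.81% of all tested genes lower) and 1 higher (Inf2, against 7.6%). Groups did not overlap for 23.8% of all tested genes (12.9% lower and 10.9% higher with cytarabine), so that 2 of 8 is close to the background. The median log2 fold change of the 8 was -0.1, beside -0.0015 over all tested genes.

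Diap2, on chromosome X from 129749742 to 130465834 of GRCm38, encodes mDia3, which has been linked to the attachment of microtubules to kinetochores. It was at 3.66, 2.85 and 3.47 FPKM after cytarabine, while the controls had 4.45, 4.85 and 5.03 FPKM. The highest cytarabine value thus lay under the lowest control value, and the mean differed by -30.4%. The log2 fold change of FPKM + 1 was -0.42 (95% interval -0.73 to -0.12; adjusted p = 0.201 from limma). At the length of its longest coding transcript, an estimated 380 to 518 reads per library lay behind these values. That gives a counting error of at most 5.1%, which leaves out the spread between mice and would be larger for a shorter transcript. Among libraries poor in colon transcript (cytarabine 1 against control 2 and 3), the difference was -0.35, and among those rich in it (cytarabine 2 and 3 against control 1) -0.39. The summed neutrophil markers were also lower in each cytarabine library than in any control library, but narrowly (1430 FPKM in cytarabine 1, 1440 FPKM in control 1). The groups of S100a8, the highest of these markers, overlapped, with 638 FPKM in cytarabine 1 and 590 FPKM in control 1. The part of neutrophil transcripts in the Diap2 difference was not tested. In these sorted bulk samples, fewer cells with a transcript and less of it per cell cannot be told apart.

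Inf2, on chromosome 12 from 112588784 to 112615557, encodes a formin that both assembles and severs filaments and acts at the endoplasmic reticulum. It was at 3.36, 3.08 and 2.9 FPKM in the cytarabine libraries, against 1.77, 2.05 and 2.46 FPKM in the control libraries. Every cytarabine library was thus above every control library, and the mean differed by 48.8%. The log2 fold change was 0.42 (95% interval 0.03 to 0.8; adjusted p = 0.26 from limma). The reads estimated at its longest coding transcript numbered 95 to 221 per library, a counting error of up to 10.3% at that length. The difference was 0.42 among libraries poor in colon transcript and 0.53 among those rich in it. The summed T cell, NK cell and platelet markers were also higher in each cytarabine library than in any control library. The part of such transcripts in the Inf2 difference was not tested. More cells with a transcript and more of it per cell cannot be told apart here either. With quantile normalization the groups of both genes overlapped, and the log2 fold change became 0.18 for Inf2 and -0.66 for Diap2.

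The other 6 tested formins had overlapping groups and intervals that include 0. For Diap1, on chromosome 18 from 37843601 to 37935476, the log2 fold change was -0.02 with a 95% interval from -0.23 to 0.19. Diap3, on chromosome 14 from 86655367 to 87141235, had -0.18 (95% interval -0.49 to 0.14). Fmnl1, on chromosome 11 from 103171107 to 103198901, had -0.26 (95% interval -0.65 to 0.14). Fmnl3, on chromosome 15 from 99317225 to 99370482, had -0.22 (95% interval -0.45 to 0.01). Fhod1, on chromosome 8 from 105329163 to 105347953, had 0.16 (95% interval -0.18 to 0.5). Fhod1 overlaps Tmem208 on the opposite strand, which was at 36.0 to 45.5 FPKM, and whether strand was used in counting is not given in the sources used here. The widest interval was that of Daam1, on chromosome 12 from 71831078 to 71992333, at 0.45 (-0.52 to 1.42). The adjusted p from limma for these 6 genes ranged from 0.298 (Fmnl3) to 0.925 (Diap1).

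**Figure D2:**
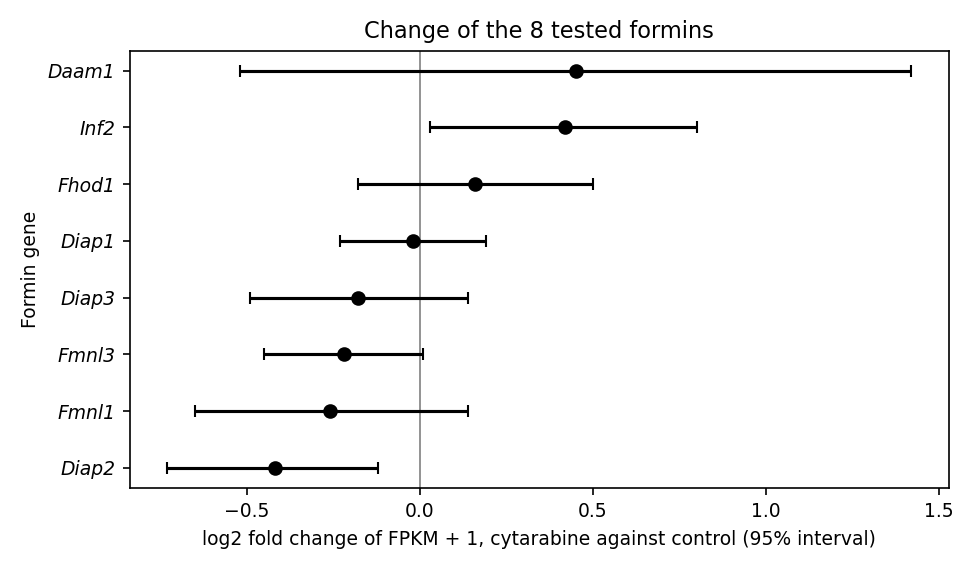
Log2 fold change of FPKM + 1 between cytarabine and control for the 8 tested formins, with bars for the 95% interval from limma before adjustment for the number of genes. The bars of Diap2 and Inf2 leave out 0 on opposite sides, and that of Daam1 is the widest.

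The levels of several formins moved with the colon and smooth muscle transcripts. Fmnl1 was at 129 to 142 FPKM in the 3 libraries poor in colon transcript and at 95.2 to 107 FPKM in the 3 rich in it. For Diap1 the ranges were 29.7 to 30.9 and 26.4 to 27.6 FPKM, for Diap3 19.1 to 20.1 and 14.8 to 16.3 FPKM, and for Fmnl3 13.8 to 15.3 and 11.5 to 13.6 FPKM. Daam1 ran the other way, at 1.74 to 2.26 FPKM in the poor and 4.04 to 5.98 FPKM in the rich libraries. The ranges of Diap2, Inf2 and Fhod1 overlapped in this division. Smooth muscle markers divided the same libraries, at 960 to 1180 FPKM in the rich and 24.5 to 168 FPKM in the poor set, so that these kinds of transcript cannot be told apart here. So 5 of the 8 tested formins were divided without overlap, as were 34.4% of all tested genes. Within both sets, cytarabine and control libraries were also divided without overlap for Diap1 (higher with cytarabine) and for Diap3, Fmnl1 and Fmnl3 (lower). For Diap2 and Inf2 this had to be so, since their groups do not overlap. The cytarabine libraries also carried more colon transcript within both sets. Its summed markers were at 323 FPKM in cytarabine 1, against 29.2 and 27.4 FPKM in control 2 and 3. They were at 4230 and 4550 FPKM in cytarabine 2 and 3, against 2090 FPKM in control 1. Colon level is thus not held equal within a set. Counted per set and in either direction, 8620 of the 11703 genes were divided in the poor set and 9595 in the rich set. A group there has only 1 library, and genes divided in the same direction in both sets were not counted. With the colon score as a covariate, the log2 fold change was 0.035 for Fmnl1, 0.11 for Diap1, 0.038 for Diap3 and -0.25 for Daam1, each opposite in sign to the value without it. Fmnl3 kept its sign at -0.09, as did Diap2 at -0.32, Inf2 at 0.56 and Fhod1 at 0.26. Set against Ptprc, a scale chosen after the values were seen, Fmnl1 was at 0.347, 0.365 and 0.298 times its level with cytarabine and 0.357, 0.369 and 0.37 times in controls.

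**Figure D3:**
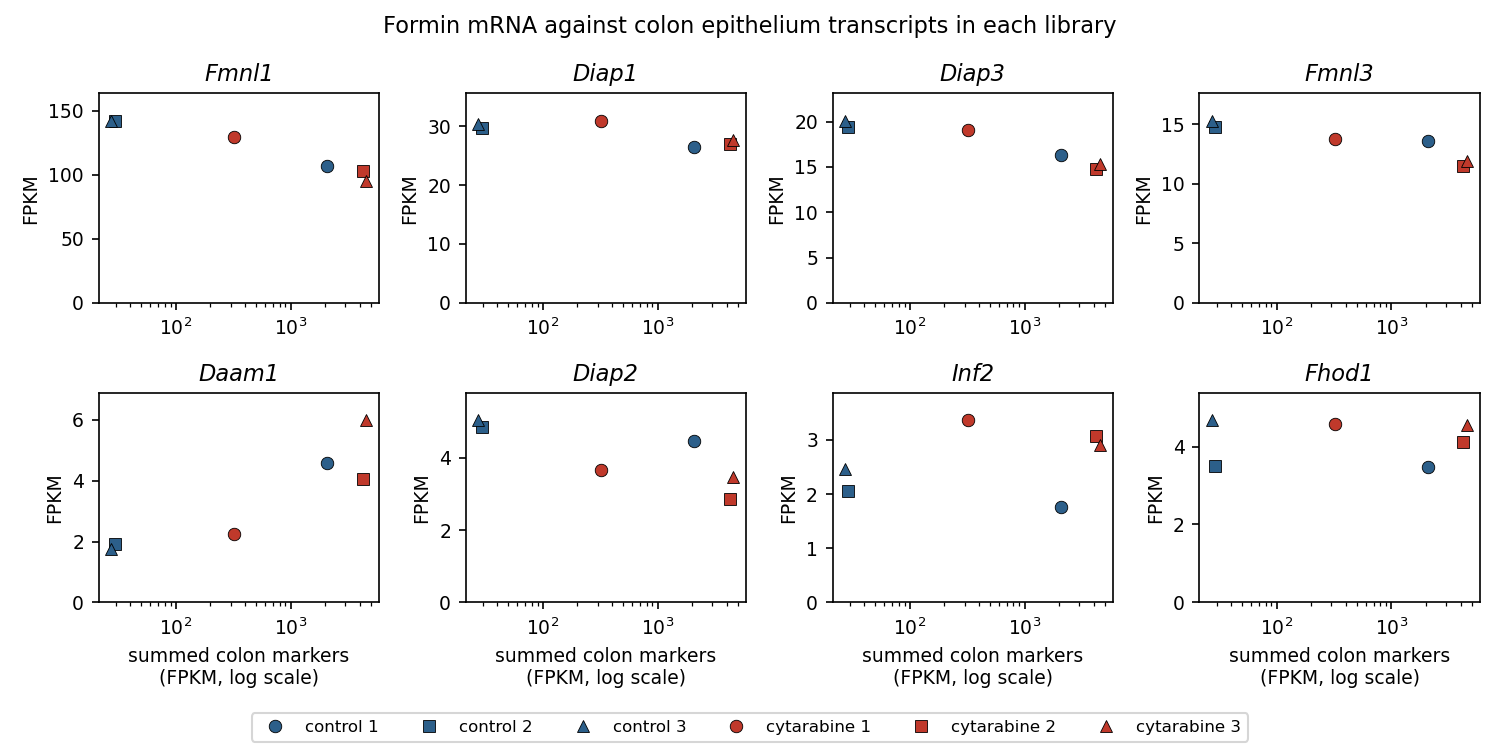
FPKM of the 8 tested formins in each library against the summed FPKM of 16 colon epithelium markers (log scale), with blue for control and red for cytarabine libraries. Fmnl1, Diap1, Diap3 and Fmnl3 are lower and Daam1 is higher in the 3 libraries at the right.

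Shares within the family do not depend on the scale of a library. They do depend on one another, so that a share can rise while the level of its gene does not. Diap2 made up 6.82%, 6.39% and 7.47% of the summed FPKM of the 3 Diaphanous genes in cytarabine 1, 2 and 3, and 9.42%, 9.0% and 9.08% in control 1, 2 and 3. The groups did not overlap, with means of 6.9% ± 0.544 (SD, n = 3) and 9.17% ± 0.228 (SD, n = 3). An exact permutation test, two-sided, gave p = 0.1 (0.15 adjusted over the 3 shares), where 3 mice against 3 cannot give less than 0.1. The share of Diap1 was 59.2% ± 1.46 after cytarabine and 55.2% ± 0.685 in controls (SD, n = 3 each), also without overlap (exact permutation p = 0.1). That of Diap3 was 33.9% ± 1.43 and 35.6% ± 0.9 (SD, n = 3 each; exact permutation p = 0.2).

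Over all 9 formins, the summed level was 182 ± 21.7 FPKM after cytarabine and 207 ± 24.0 FPKM in controls (SD, n = 3 each), with overlapping groups (exact permutation p = 0.2 on the log2 scale). Fmnl1 made up 56.9% to 65.0% of this sum in every library. Groups did not overlap for the shares of 4 of the 9 genes, and no background over other genes was made for shares. Inf2 made up 1.72% ± 0.0876 after cytarabine and 1.01% ± 0.088 in controls (SD, n = 3 each). Diap1 was at 15.7% and 14.0% and Fhod1 at 2.45% and 1.88%, both higher with cytarabine, and Diap2 at 1.83% and 2.32%. Each of these 4 shares had p = 0.1 in the exact permutation test, or 0.225 adjusted over the 9 shares, and no share could pass at this group size. The mean level of Diap1 itself was 28.5 FPKM after cytarabine and 28.8 FPKM in controls, while the mean share of Fmnl1 was 59.9% and 63.0%, with overlapping groups. With quantile normalization the share difference became 0.378 percentage points for Inf2 (0.707 without it; exact permutation p = 0.4) and 0.222 for Fhod1 (0.566 without it; exact permutation p = 0.5), Diap1 had an exact permutation p of 0.2, and that of Diap2 was still 0.1. The ratio of Inf2 to Diap2, chosen after the values were seen and given as a description, was 0.918, 1.08 and 0.837 with cytarabine and 0.397, 0.422 and 0.489 in controls.

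**Figure D4:**
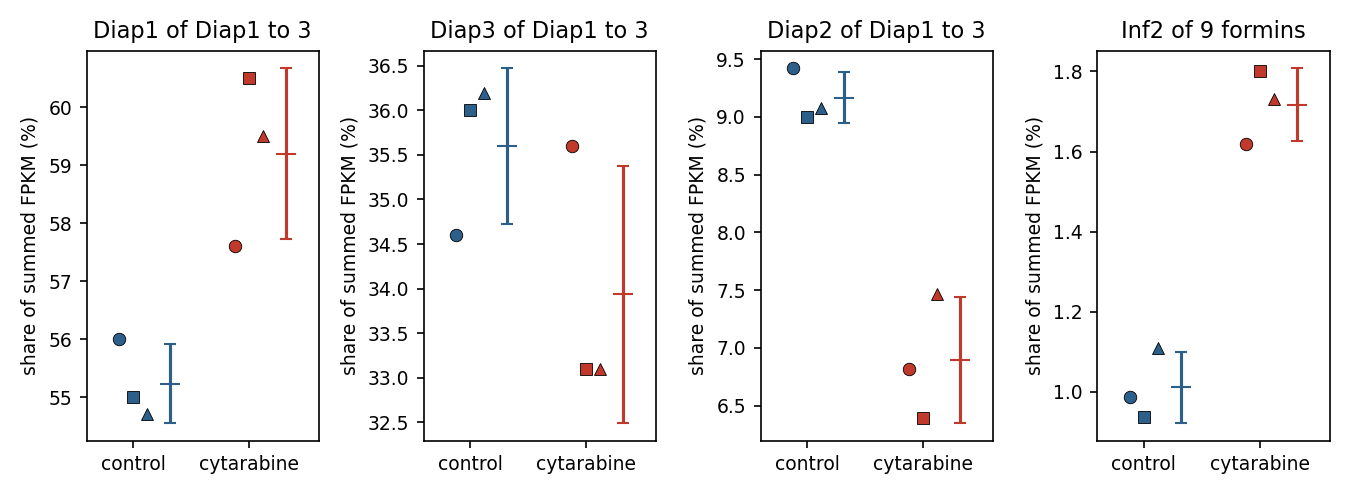
Share of the summed FPKM (percent, axes not starting at 0) for Diap1, Diap3 and Diap2 among the 3 Diaphanous genes and for Inf2 among the 9 formins, with a symbol per library and the mean with SD beside it. The groups separate for Diap1, Diap2 and Inf2 and overlap for Diap3.

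Other genes of the pathway were taken from hand-written lists. The other factors at growing filament ends, such as capping proteins, were all tested (9 of 9), and 0 passed at an adjusted or an unadjusted p under 0.05. Among proteins that bind or assist formins, 17 of 19 were tested, with 1 higher and 1 lower at an unadjusted p under 0.05 (11.8%, beside 17.4% of all tested genes). Baiap2, which encodes IRSp53, a membrane-bending partner of formins, was at 8.63, 7.93 and 6.67 FPKM in the cytarabine libraries, against 5.22, 5.45 and 4.93 FPKM in the control libraries (log2 fold change 0.49, adjusted p = 0.166 from limma). Spire1, an actin nucleator that works with other formins, was at 15.2, 12.7 and 11.9 FPKM after cytarabine, while the controls had 18.9, 16.1 and 18.8 FPKM (log2 fold change -0.41, adjusted p = 0.192 from limma). Both had groups without overlap, again 11.8% of the list beside 23.8% of all tested genes. Of the MRTF and SRF regulators, 8 of 9 were tested and 1 was higher at an unadjusted p under 0.05 (12.5%, beside 7.6% of all tested genes higher). It was Fhl2, with a log2 fold change of 0.43 (adjusted p = 0.184 from limma). The median log2 fold changes of these lists were -0.03 for formin partners, -0.08 for MRTF and SRF regulators and 0.11 for factors at filament ends. The list of cytokinesis and mitosis genes, to which the role of Diap3 relates, had 6 of 17 tested genes lower at an unadjusted p under 0.05 (35.3%, beside 9.81% of all tested genes lower) and a median of -0.2. Groups did not overlap for 23.5% of this list, each gene being lower with cytarabine, beside 12.9% of all tested genes lower (23.8% in either direction). Plk1, a mitotic kinase, had -0.58 (adjusted p = 0.149 from limma), Prc1 had -0.46 and Cdca8 -0.32. No set test was made, and in none of these lists did a gene pass at an adjusted p under 0.05.

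Likeness of pattern was measured as the root mean square difference of log2(FPKM + 1), centred on each gene's mean, over the 6 libraries and 11702 other genes. Among the 3 genes closest to Diap2 were Ubxn6 (0.0331) and Armc5 (0.0385). Closest to Diap1 were the protease gene Adam17 (0.0118), the kinase gene Camk2d (0.0174) and the proteasome gene Psmd1 (0.0184). Closest to Diap3 were Prrc2b (0.0172), Slc35a4 (0.0175) and Tomm6 (0.0183). The genes named as closest to Diap1 and to Diap3 were all higher in the 3 libraries poor in colon transcript, as were Diap1 and Diap3. With 6 libraries, such closeness describes these values only.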

How the data were processed

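RNA was measured in C1498 cells from 3 cytarabine and 3 control mice. The authors aligned the reads to mm10 with TopHat2 2.0.13, Bowtie2 2.2.3 and SAMtools 0.1.19 and deposited FPKM per gene from Cufflinks 2.2.1, which are scaled by length and library size and are not counts. The annotation used is not given in the sources used here. Groups and replicate numbers come from the sample records. Log2(FPKM + 1) of the 11703 genes whose mean reached 1 FPKM was fitted with limma 3.58.1 in R 4.3.3 (eBayes with an intensity trend), with two-sided p-values adjusted by Benjamini-Hochberg over all of them. The p-values rest on the spread between libraries of different mice, which includes differences in transcripts of other cells. In limma that spread is moderated by a trend over all tested genes. Shares were tested with exact permutation tests. On simulated data with 11703 genes, 58% to 66% of genes changed by 1 on the log2 scale were recovered, with 9 false calls. The 95% intervals held the true change for 92% of the changed genes. Noise was drawn separately for each gene, without transcripts of other cells that vary together between libraries. No change as small as those of the formins was simulated.

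Named were all 9 members, up to 3 genes per direction of each list at an unadjusted p under 0.05 with the smallest p, the 3 genes most like each Diaphanous gene, and the top marker of a list where its values bear on a result. Members and lists were chosen with earlier results of these data known. Some genes and lists that these rules name are not reported here. Read totals and counting errors assume 200-base fragments and the longest coding transcript in GENCODE (GRCm38), where Diap1 to Diap3 are Diaph1 to Diaph3, and about 77.7% to 82.4% of low values lay within 0.15 of a whole read. They cover counting error only. Alternatives were other pseudocounts, filters, scalings and eBayes settings, a colon score as covariate, the replicate block, leaving out each library, and values within libraries rich or poor in colon transcript. Figures were drawn with matplotlib 3.10.9.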

Additional observations from a re-analysis of the deposited data

How the results depend on the processing

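No formin passed an adjusted p under 0.05 in limma under any alternative, and the lowest was 0.0861, for Diap2 without cytarabine 1. Of 148 values of the 8 tested formins under 19 alternatives, 135 kept their direction and 13 reversed. Other filters, other eBayes settings and the replicate block leave the log2 fold change as it is, so their agreement was fixed in advance. Diap2 was lower in 18 of 18 (from -0.66 to -0.31) and Inf2 higher in 18 of 18 (from 0.18 to 0.56). Since the groups of both genes do not overlap, another pseudocount, leaving out a library and the values within each set could not reverse them. Their unadjusted p from limma was under 0.05 in 12 and 8 of the 16 with a test. Reversed were Diap1 with an equal sum per library (0.0033), the colon score as covariate (0.11), scaling to equal Ptprc, chosen after seeing the data (0.12), and within libraries poor (0.041) or rich (0.043) in colon transcript. Also reversed with the colon score were Diap3 (0.038), Daam1 (-0.25) and Fmnl1 (0.035), and with quantile normalization Fhod1 (-0.029). Leaving out each library in turn gave Diap1 from -0.074 to 0.021. Among the 9 shares, the difference of Diap3 ranged from -0.121 to 0.183 percentage points when each library was left out and was 0.265 within libraries poor in colon transcript, and that of Fmnl2 ranged from -0.105 to 0.117 and was 0.028 there. The causes were not tested.

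Genes at an adjusted p under 0.05 numbered 0 (2038 at an unadjusted p under 0.05), but 1 with a pseudocount of 0.1, 2 without the trend, 1 with the robust trend and 0 to 5 when each library was left out. At an unadjusted p under 0.05 there were 994 with the replicate block, 1123 scaled to equal Ptprc, of which 837 were higher and 286 lower (890 and 1148 without it; the median of all genes moved to 0.12), and 1179 to 4075 when each library was left out, the highest without cytarabine 1. Groups did not overlap for 1737 genes scaled to equal Ptprc, for 8620 and 9595 within libraries poor and rich in colon transcript, where a group has only 1 library, and for 3385 to 6533 when each library was left out, the highest without cytarabine 1 (4904 without control 1).

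Same-numbered libraries are different mice, and the numbers are those of the source names, while the record titles carry other numbers. Their deviations from the group means correlated at -0.709, -0.247 and -0.594. Each number joins a library rich in colon transcript with a poor one, so these correlations cannot decide whether libraries were paired. The main fit treated them as unpaired. With the replicate block the unadjusted p was 0.0604 for Diap2 and 0.128 for Inf2. Low counts limit the precision of Fmnl2 and the remaining formins under 1 FPKM.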
